A study of Mus musculus with 12 samples.

Results

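Gene expression was compared between regulatory T (Treg) cells cultured with anti-CD3 and anti-CD28 antibodies and Treg cells cultured with the soluble ligands OX40L and JAG1, on 4 of the 12 arrays of the series, 2 in each group. The 4 arrays were chosen by their sample titles, and 22180 genes were measured on each. The series profiled sorted CD4+ T cells of the mouse spleen on Affymetrix Mouse Gene 2.0 ST arrays and asked how Treg cells that proliferate through the T cell receptor differ from those that proliferate without it. All mice were 8 weeks old and carried the Foxp3.eGFP reporter on the C57BL/6 background, so that Treg cells, which express Foxp3, could be sorted from Foxp3-negative effector (Teff) cells by their green fluorescence. The anti-CD3-CD28 Treg cells came from splenic CD4+ cells kept for 3 days with 2 µg/ml of each antibody. The OX40L-JAG1 Treg cells came from the same kind of culture, kept for 3 days with 5 µg/ml OX40L and 1 µg/ml JAG1. Control Treg cells were sorted fresh, without culture, and each condition also had 2 Teff arrays. Treg and Teff cells shared a culture and were sorted after it, so a Treg cell here is one that carried the reporter at the end. None of the 6 groups was cultured without antibodies or ligands. No label says whether the 2 samples of a group, called B and 1, are separate mice or cultures. A p-value here sets a difference against the spread of arrays within groups, pooled over the 6 groups, which may be a technical spread.

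Antibodies to CD3 and CD28 act on the T cell receptor complex and its main costimulatory receptor, and drive T cells through calcium, ERK and NF-kappaB signals into growth and division. OX40L binds OX40 (gene Tnfrsf4), a TNF receptor that Treg cells carry at rest and that signals to canonical and noncanonical NF-kappaB. JAG1 is a ligand of the Notch receptors, which are cut on ligand binding and release an intracellular part that acts with RBPJ on genes such as Hes1, Dtx1 and Nrarp.

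Values are log2 summarised intensities, on which a difference of 1 is a fold of 2, and a difference here is always anti-CD3-CD28 Treg minus OX40L-JAG1 Treg. Foxp3, the gene behind the sort, read 11.02 and 11.22 in the anti-CD3-CD28 Treg arrays (B and 1), 10.92 and 10.64 in the OX40L-JAG1 Treg arrays and 10.36 and 10.37 in the control Treg arrays. In the 6 Teff arrays it read 5.58 to 6.81, below every Treg array. Its difference between the cultured Treg groups was 0.34 ± 0.21 (SE, limma adjusted p = 0.526), so it did not pass the test. Cd4 and Cd3e, which encode the coreceptor and a chain of the T cell receptor complex, were bright in both groups, with differences of -0.21 (adjusted p = 0.782) and -0.07 (adjusted p = 0.938). The number of arrays limits the precision of every value. Of the 6 pairs of replicates, the OX40L-JAG1 Teff pair stood apart. Its values correlated at 0.881 across genes, against 0.984 to 0.994 in the other groups, and its SD over genes was 1.49 and 1.71, against 1.95 to 2.19 on the other 10 arrays. The replicates correlated at 0.994 in anti-CD3-CD28 Treg cells and at 0.988 in OX40L-JAG1 Treg cells. The main fit shares 1 spread per gene over all 12 arrays, so counts are also given from the 10 arrays without that Teff pair. Genes of the Y chromosome and Xist differed between the Treg groups, and markers of myeloid cells and basophils were high in OX40L-JAG1 Treg cells among the 3 Treg groups. Their part in the differences of the other gene groups was not tested, and their values stand after those groups.

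Granzymes A and B, most cell cycle genes and many metabolic genes were higher in anti-CD3-CD28 Treg cells than in OX40L-JAG1 Treg cells. With limma's moderated test and an adjusted p under 0.05, 1050 of 22180 genes were higher (4.73%) and 261 were lower (1.18%) in anti-CD3-CD28 Treg cells, 5.91% in either direction. The arrays of the cultured Treg groups did not overlap for 12102 genes (54.6%), so a gap between the groups alone says little of a gene. The median difference of all genes was -0.02. With no adjustment, 2454 of 22180 genes were higher and 1060 lower at p under 0.05 in limma's test. Counts of list members with no adjustment are to be read against these. The lists were chosen with earlier results of these data known, so their counts are description. On the 10 arrays without the OX40L-JAG1 Teff pair, 2193 genes were higher (9.89%) and 889 lower (4.01%). These included all 1311 genes called on 12 arrays. That fit keeps each difference and changes only its standard error and p-value, so the overlap is no separate evidence. Leaving out any 1 of the 4 Treg arrays compared leaves its group with 1 array and a larger standard error. Genes can then lose the call whatever that array read, so a lost call does not show that it rested on 1 array. For Cd44, which lost it, the difference was 1.32 to 1.35 in these fits, against 1.34 on 12 arrays. Of the 153 genes called among those named by rule, 100 were called whichever 1 of the 12 arrays was left out, and the other 53 were not past the threshold without at least 1 of the 4. Quantile normalization called 637 higher and 325 lower, so the share of higher among called genes was 66.2% in place of 80.1%. Of the called genes, 799 were higher and 196 lower by at least 1 on the log2 scale. The intensity gives no call of presence. The lowest array median, 4.87, is used as a bound, and a gene whose group mean lies below it is not shown to be above background in that group, so its fold is one between a measured and an unmeasured level. In 12 of the 12 largest negative differences the anti-CD3-CD28 Treg mean lay below that bound, and in 2 of the 12 largest positive ones the OX40L-JAG1 Treg mean did. In samples of many cells, fewer cells that make a transcript and less of it per cell cannot be told apart.

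**Figure D1:**
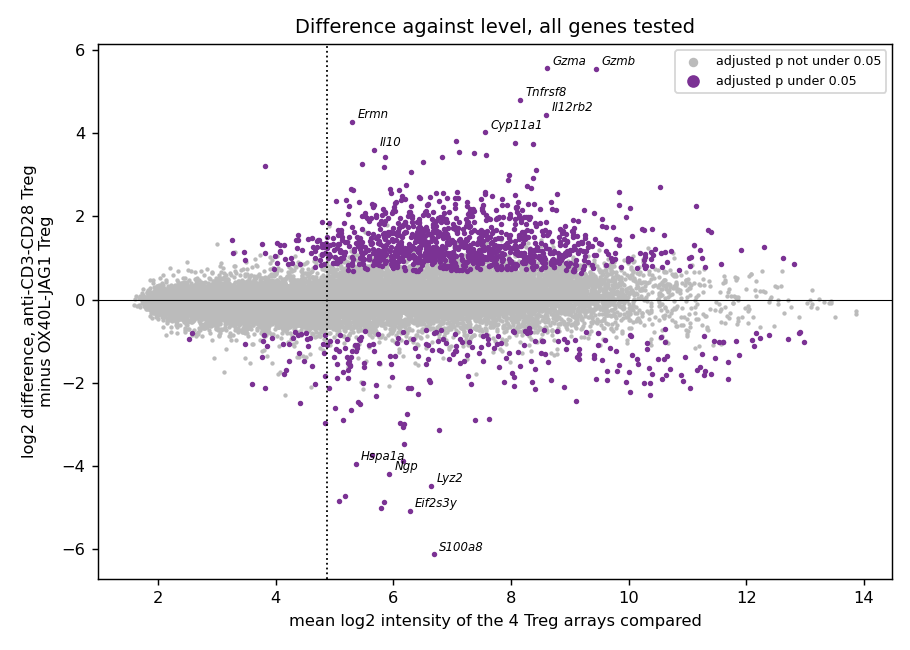
Difference, anti-CD3-CD28 Treg minus OX40L-JAG1 Treg (log2, y axis) against the mean log2 intensity of the 4 arrays (x axis), 1 point per gene, with the 1311 genes under an adjusted p of 0.05 in purple. The dotted line is the bound of 4.87, the called genes above 0 number 1050, and S100a8 lies lowest at -6.13.

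The largest differences upward were those of the granzymes. Gzmb, which encodes granzyme B, a serine protease that killer lymphocytes deliver into target cells, read 12.27 and 12.16 in anti-CD3-CD28 Treg arrays, 6.41 and 6.91 in OX40L-JAG1 Treg arrays and 6.36 and 6.53 in control Treg arrays. The OX40L-JAG1 and control arrays overlapped, while both anti-CD3-CD28 arrays lay far above them, by 5.55 ± 0.26 (SE) against OX40L-JAG1 or 46.9-fold (adjusted p = 4e-06). Gzma, for the related protease granzyme A, read 11.33 and 11.47 in anti-CD3-CD28 Treg arrays and 5.62 and 6.06 in OX40L-JAG1 Treg arrays, a difference of 5.56 ± 0.65 (adjusted p = 0.000411). Fasl, the ligand of the death receptor Fas, was the only other called member of the 19 granzyme and cytotoxic granule genes measured, with 6.79 and 6.67 against 4.74 and 4.93 and a difference of 1.89 ± 0.28 (adjusted p = 0.002). Fasl did not pass after quantile normalization (adjusted p = 0.0631), where 2 of the 19 were higher and 2 lower. On 10 arrays 7 of the 19 were higher and 2 lower. The list's median difference was 0.14, against -0.02 for all genes. Prf1, for the pore protein perforin, differed by 0.35 (adjusted p = 0.484). Granzyme genes are near copies of each other in part, so probes may share signal between them. Of 11 markers of CD8 T, gamma-delta and NK cells, which also carry granzymes, none was higher and 1 was lower (Fcer1g, which other cells share) in anti-CD3-CD28 Treg cells, and with no adjustment none was higher and 2 were lower at p under 0.05. The mean of these 11 genes was 4.32 and 4.41 in anti-CD3-CD28 Treg arrays and 4.66 and 4.78 in OX40L-JAG1 Treg arrays, below the bound. Of the 11, 6 lay below the bound in both groups, and the part of such cells in the granzyme values was not tested. Cd8a read 4.92 and 5.22 against 4.97 and 5.18.

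**Figure D2:**
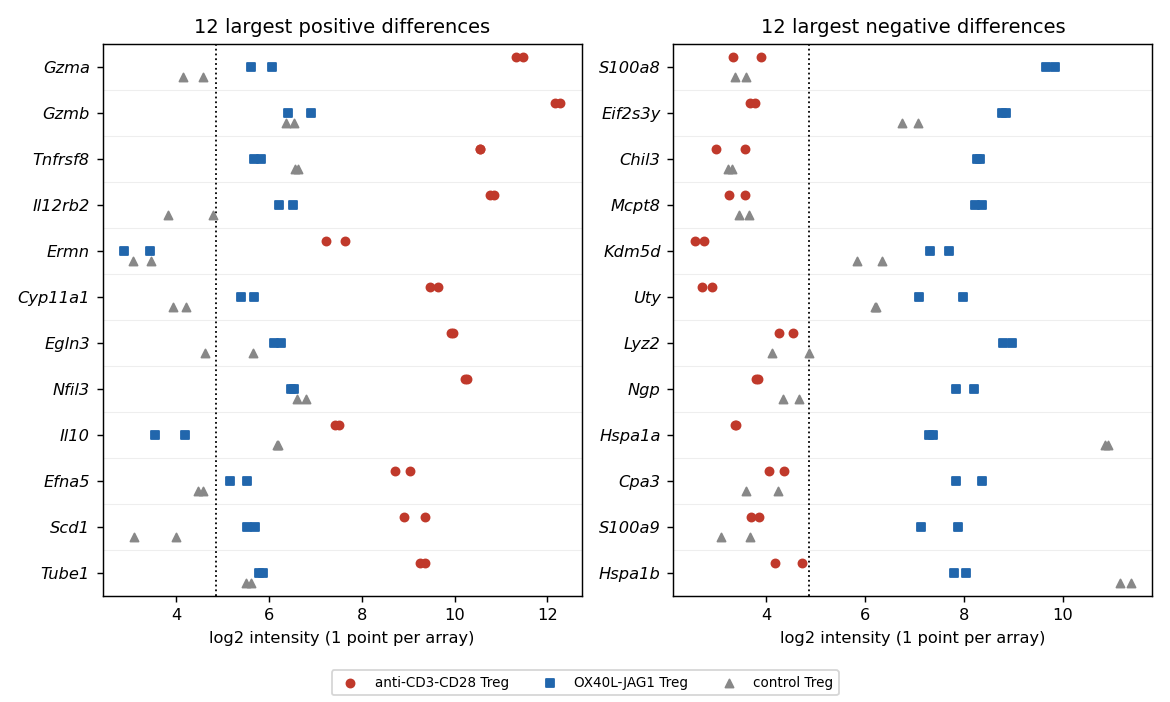
Log2 intensity (x axis) of the genes with the 12 largest positive (left) and the 12 largest negative differences (right), with 1 point per array for anti-CD3-CD28 Treg, OX40L-JAG1 Treg and control Treg cells and a dotted line at 4.87. For Il10, Hspa1a and the Y-linked genes, control Treg cells differ from the OX40L-JAG1 level, while for Gzmb they lie on it.

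Other genes among the 12 largest positive differences have varied roles. Tnfrsf8, which encodes the TNF receptor CD30 of activated lymphocytes, read 10.55 and 10.55 against 5.68 and 5.82, a difference of 4.80 ± 0.25 (27.9-fold, adjusted p = 4e-06). Its control Treg values, 6.56 and 6.63, lay above the OX40L-JAG1 ones. Il12rb2, the signalling chain of the IL-12 receptor, read 10.77 and 10.86 against 6.52 and 6.22, with 3.82 and 4.80 in control Treg cells. Its difference was 4.45 ± 0.28 (adjusted p = 1.01e-05). Cyp11a1, the mitochondrial enzyme that turns cholesterol into pregnenolone, the first step of steroid synthesis, read 9.48 and 9.65 against 5.4 and 5.67, a difference of 4.03 ± 0.27 (adjusted p = 1.54e-05). It alone of 8 steroid synthesis genes measured was called. Il10, for the suppressive cytokine interleukin 10, read 7.51 and 7.42 in anti-CD3-CD28 Treg arrays, 4.20 and 3.54 in OX40L-JAG1 Treg arrays and 6.19 and 6.17 in control Treg arrays. The 3 groups did not overlap, and the OX40L-JAG1 mean lay below the bound. The difference was 3.60 ± 0.25 (adjusted p = 1.66e-05). Ermn, which encodes the cytoskeletal protein ermin, differed by 4.27 ± 0.32 with its OX40L-JAG1 mean also below the bound. Nfil3, a basic leucine zipper transcription factor, differed by 3.73 ± 0.21 and Efna5, an ephrin ligand, by 3.54 ± 0.24. Tube1, for epsilon tubulin of the centrosome, differed by 3.48 ± 0.18. Each of these 24 largest genes was called in every fit that left out 1 array.

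Most Treg identity genes did not pass the test, and more were higher than lower. Of 29 measured, 11 were higher and 2 lower, with a median difference of 0.57, and on 10 arrays 15 were higher and 3 lower. Il2ra, the high-affinity chain of the IL-2 receptor, read 12.99 and 12.86 in anti-CD3-CD28 Treg arrays, 11.78 and 11.56 in OX40L-JAG1 Treg arrays and 11.24 and 11.19 in control Treg arrays. All anti-CD3-CD28 arrays lay above all OX40L-JAG1 arrays, which lay above the control arrays, and the cultured groups differed by 1.26 ± 0.27 (adjusted p = 0.0187). Ctla4, the inhibitory receptor of CD80 and CD86, read 10.76 and 10.74 against 9.63 and 9.61 (1.13 ± 0.23, adjusted p = 0.0132). Lrrc32, for GARP, which holds latent TGF-beta at the surface, read 10.57 and 11.16 against 9.83 and 9.93 (0.98 ± 0.23, adjusted p = 0.0249). Ccr8, a chemokine receptor of activated Treg cells, differed by 2.93 ± 0.19, the costimulatory receptor Icos by 1.69 ± 0.23 and the AP-1 family factor Batf by 1.67 ± 0.43. Batf did not pass after quantile normalization. Without at least 1 of the 4 arrays Il2ra, Ctla4, Lrrc32 and Batf did not pass, and the number higher was 4 to 15 over all fits that left out 1 array. The 2 members that fell were Nrp1 and Itgae. Nrp1, for neuropilin-1, a surface marker of thymus-derived Treg cells, read 6.82 and 6.81 against 8.11 and 8.08, with 8.91 and 9.0 in control Treg cells (-1.28 ± 0.25, adjusted p = 0.009), a call lost without at least 1 of the 4 arrays. Itgae, for the integrin chain CD103 that binds E-cadherin, read 7.84 and 7.93 in anti-CD3-CD28 Treg arrays, 9.49 and 9.28 in OX40L-JAG1 Treg arrays and 7.37 and 7.55 in control Treg arrays. For Itgae the OX40L-JAG1 arrays were the high ones of the 3 groups, and the difference was -1.5 ± 0.18 (adjusted p = 0.00048). Ikzf2, for Helios, differed by -0.47 ± 0.26 and did not pass (adjusted p = 0.474).

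Coinhibitory receptors split. Of 18 measured, 5 were higher and 2 lower, with a median of 0.21. Havcr2, for TIM-3, read 7.25 and 7.61 against 4.31 and 4.16, a difference of 3.19 ± 0.26 with the OX40L-JAG1 mean below the bound. Tigit read 9.58 and 9.70 in anti-CD3-CD28 Treg arrays, 6.77 and 7.03 in OX40L-JAG1 Treg arrays and 7.97 and 8.58 in control Treg arrays, and Lag3, a receptor of MHC class II, read 8.30 and 8.45, then 5.82 and 5.78, then 7.40 and 7.07. For both, the OX40L-JAG1 arrays lay below the control arrays and the anti-CD3-CD28 arrays above them. Their differences were 2.74 ± 0.29 and 2.58 ± 0.19. Entpd1, for CD39, which breaks down extracellular ATP, differed by 1.99 ± 0.21. Btla, an inhibitory receptor that binds HVEM, went the other way, with 7.66 and 7.48 against 9.33 and 9.17 and a difference of -1.68 ± 0.24 (adjusted p = 0.0013), and its OX40L-JAG1 values lay near the control Treg values of 9.42 and 9.44.

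**Figure D3:**
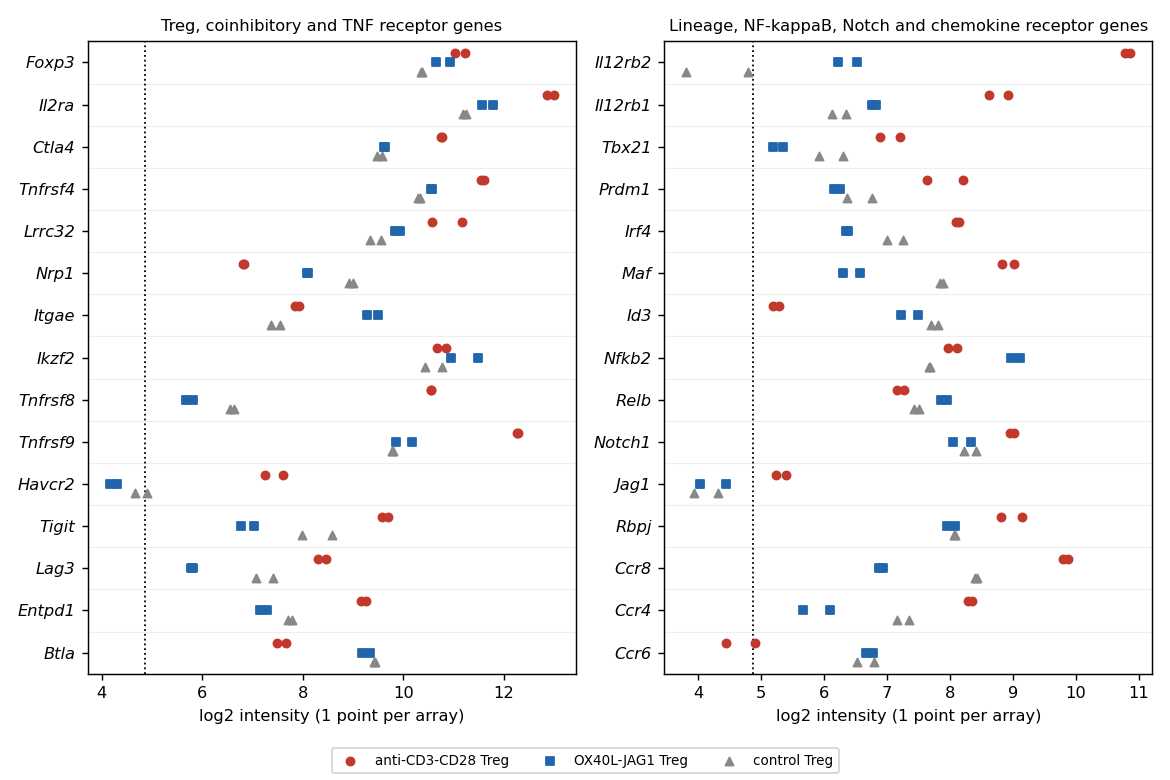
Log2 intensity (x axis) of immune regulators, 1 point per array, for anti-CD3-CD28 Treg, OX40L-JAG1 Treg and control Treg cells, with a dotted line at 4.87. Foxp3 and Ikzf2 did not pass the test between the cultured groups, while Nrp1, Itgae, Btla, Id3, Nfkb2 and Ccr6 were lower in anti-CD3-CD28 Treg cells.

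The TNF receptors and ligands, which include the receptor of OX40L, gave 4 higher and 2 lower of 26, 7 and 6 on 10 arrays, and 4 and 4 after quantile normalization. Tnfrsf4, for OX40 itself, read 11.55 and 11.60 in anti-CD3-CD28 Treg arrays, 10.54 and 10.57 in OX40L-JAG1 Treg arrays and 10.28 and 10.32 in control Treg arrays. It was thus higher with the antibodies than with its own ligand, by 1.02 ± 0.25 (adjusted p = 0.0362). Tnfrsf9, for the costimulatory receptor 4-1BB, differed by 2.25 ± 0.18 (adjusted p = 4.98e-05). Ltb, for lymphotoxin beta, a ligand of the noncanonical NF-kappaB route, read 10.86 and 11.04 against 12.06 and 11.85, a difference of -1.01 ± 0.21 (adjusted p = 0.0145). Neither Tnfrsf4 nor Ltb passed without at least 1 of the 4 arrays.

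Among 25 NF-kappaB subunits and regulators 2 were higher and 1 lower, with a median of -0.02, and on 10 arrays 4 were higher and 7 lower. After quantile normalization 1 was higher and 5 were lower. Nfkb2, whose p100 product is cut to p52 in the noncanonical route, read 7.97 and 8.11 in anti-CD3-CD28 Treg arrays, 9.10 and 8.96 in OX40L-JAG1 Treg arrays and 7.66 and 7.68 in control Treg arrays. The OX40L-JAG1 arrays were the high ones, and the difference was -1.0 ± 0.17 (adjusted p = 0.0046). Relb, the partner of p52, read 7.16 and 7.28 against 7.95 and 7.86. Its difference of -0.69 ± 0.21 did not pass on 12 arrays (adjusted p = 0.0854) and did on 10 (adjusted p = 0.0106). Bcl3, an atypical inhibitor protein that works in the nucleus, was higher by 1.30 ± 0.29 (adjusted p = 0.0199), and Birc3, a ubiquitin ligase of the same pathway, by 0.79 ± 0.17 (adjusted p = 0.0187), but Birc3 did not pass after quantile normalization. None of Nfkb2, Bcl3 and Birc3 passed in every fit that left out 1 array.

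Of 35 Notch pathway genes, 5 were higher and none lower, also on 10 arrays, with a median of 0.06. With no adjustment 5 were higher and 1 lower at p under 0.05, against 2454 and 1060 of all 22180 genes. Notch1 read 8.95 and 9.01 against 8.34 and 8.04 (0.79 ± 0.19, adjusted p = 0.0282), and Jag1 itself 5.24 and 5.4 against 4.03 and 4.45, with the OX40L-JAG1 mean below the bound (1.08 ± 0.23, adjusted p = 0.0154). Rbpj, the DNA-binding partner of Notch, differed by 0.96 ± 0.21, its coactivator Maml1 by 1.06 ± 0.19 and Ncstn, for the gamma-secretase subunit nicastrin, by 0.73 ± 0.19. After quantile normalization 2 of the 5 remained called, and Notch1, Rbpj and Ncstn did not pass. None of the 5 passed without OX40L-JAG1 Treg replicate B or without either anti-CD3-CD28 Treg array, and 2 did without OX40L-JAG1 Treg replicate 1. Notch2 (-0.34 ± 0.20, adjusted p = 0.499) and Notch3 (-0.24 ± 0.38, adjusted p = 0.882) did not pass, and the Notch3 arrays of the groups overlapped. The Notch target Dtx1 read 6.30 and 6.30 in anti-CD3-CD28 Treg arrays, 6.75 and 6.68 in OX40L-JAG1 Treg arrays and 8.82 and 8.82 in control Treg arrays. The cultured groups differed at Dtx1 by -0.41 ± 0.20 (adjusted p = 0.36), at Hes1 by -0.31 ± 0.19 (adjusted p = 0.528) and at Nrarp by -0.46 ± 0.23 (adjusted p = 0.407), none of which passed.

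Of 24 effector cytokines 7 were higher and none lower (on 10 arrays 8 and 2, and 8 and 3 with no adjustment at p under 0.05), while 11 lay below the bound in both groups. After quantile normalization 3 were higher, and with 1 array left out 3 to 8 were. Lif, a cytokine of the IL-6 family, read 7.86 and 8.06 against 5.68 and 5.77 (2.23 ± 0.20, adjusted p = 7.79e-05). Il13, a type 2 cytokine, differed by 1.57 ± 0.34, Il24 by 1.67 ± 0.27 and Ifng, for interferon gamma, by 0.87 ± 0.21 with 5.45 and 5.43 against 4.44 and 4.69. Il13 and Ifng did not pass after quantile normalization, or without at least 1 of the 4 arrays. Il2 was below the bound in both groups (-0.60 ± 0.22, adjusted p = 0.172). Of 26 cytokine receptors 7 were higher and 1 lower (4 to 9 and 0 to 3 with 1 array left out). Il12rb1, the other chain of the IL-12 receptor, differed by 1.97 ± 0.24, Il4ra by 1.70 ± 0.24 and Il2rb by 1.67 ± 0.25.

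T helper lineage regulators gave 9 higher and 1 lower of 23, with a median of 0.53. Tbx21, for T-bet, the factor of type 1 responses, read 6.89 and 7.20 in anti-CD3-CD28 Treg arrays, 5.35 and 5.19 in OX40L-JAG1 Treg arrays and 5.92 and 6.31 in control Treg arrays. Irf4, a factor induced by receptor signals, read 8.14 and 8.10, then 6.38 and 6.34, then 7.25 and 7.0, and Maf, a factor of Il10 expression, read 9.01 and 8.83, then 6.57 and 6.30, then 7.83 and 7.88 in the same groups. In all 3 genes the OX40L-JAG1 arrays lay below and the anti-CD3-CD28 arrays above the control arrays, with differences between the cultured groups of 1.78 ± 0.21, 1.76 ± 0.18 and 2.48 ± 0.18. Id3, an inhibitor of E proteins that is high in resting Treg cells, fell, with 5.18 and 5.29 against 7.23 and 7.49 (-2.13 ± 0.34, adjusted p = 0.0027).

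Of 20 chemokine receptors 7 were higher and 2 lower (2 to 9 and 1 to 3 with 1 array left out). Ccr4, which binds CCL17 and CCL22, read 8.35 and 8.29 against 6.10 and 5.67 (2.43 ± 0.25), and Cxcr6 and Ccr2 differed by 1.82 ± 0.35 and 1.39 ± 0.29. Ccr6, the receptor of CCL20, read 4.90 and 4.44 in anti-CD3-CD28 Treg arrays, 6.78 and 6.67 in OX40L-JAG1 Treg arrays and 6.53 and 6.80 in control Treg arrays. Its difference was -2.05 ± 0.21 (adjusted p = 0.000163), with the anti-CD3-CD28 mean below the bound. Integrins and adhesion genes gave 4 higher and 4 lower of 24 (3 and 5 after quantile normalization). Itga4, the alpha-4 chain that binds VCAM-1, read 7.87 and 7.82 against 10.11 and 9.79 (-2.11 ± 0.18), with 10.20 and 10.14 in control Treg cells. Itgb3, the beta-3 chain, rose by 1.47 ± 0.21, the adhesion molecule Epcam by 1.80 ± 0.29 and the hyaluronan receptor Cd44 by 1.34 ± 0.26. Cd44 did not pass after quantile normalization, and Ccr2, Cxcr6 and Cd44 did not without at least 1 of the 4 arrays.

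Of 18 IL-2 and STAT5 response genes 8 were higher and none lower, with a median of 0.87, and on 10 arrays 14 were higher (5 to 14 with 1 array left out). With no adjustment 14 were higher and none lower at p under 0.05. Socs3, a feedback inhibitor of cytokine receptors, differed by 1.98 ± 0.22 and Ccnd3, for cyclin D3, by 1.58 ± 0.19. Of 18 genes of ERK feedback 2 were higher, the phosphatase genes Dusp5 (1.85 ± 0.26) and Dusp4 (1.47 ± 0.22), and on 10 arrays 6 were. Immediate early genes gave 3 higher and 1 lower of 24, among them Fosl2, an AP-1 subunit, at 1.27 ± 0.17, and Zfp36l2, for a protein that shortens the life of mRNA, at -1.45 ± 0.19. On 10 arrays 10 of these 24 were higher and 3 lower, and after quantile normalization 1 was higher and 3 were lower. Of 18 genes of the T cell receptor complex and the T cell surface 4 were higher, among them Cd28 (1.13 ± 0.25) and Lcp2, for the adaptor SLP-76 (0.85 ± 0.17). Of 21 genes of quiescence and recirculation 5 were lower and 1 higher, with a median of -0.42, and on 10 arrays 9 were lower. Il7r, the IL-7 receptor chain of resting cells, read 10.85 and 10.83 in anti-CD3-CD28 Treg arrays, 11.84 and 11.61 in OX40L-JAG1 Treg arrays and 10.05 and 10.46 in control Treg arrays (-0.88 ± 0.19, adjusted p = 0.0192). Actn1, for alpha-actinin-1, was lower by a difference of -1.38 ± 0.18, and Satb1, a chromatin organiser, was the member that rose (0.97 ± 0.18), though not after quantile normalization. Il7r, Cd28, Lcp2 and Satb1 did not pass without at least 1 of the 4 arrays, and the number of quiescence genes lower was 1 to 9 over all fits that left out 1 array.

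Mitosis and S phase genes were higher with few exceptions, while most G1 genes did not pass. Of 28 mitosis and chromosome segregation genes 25 were higher and none lower, with a median of 1.89, and of 27 DNA replication and S phase genes 25 were higher and none lower, with a median of 1.6. On 10 arrays all 28 and all 27 were higher. After quantile normalization 22 and 18 were, and with 1 array left out 21 to 28 and 15 to 27 were. The mean level of the mitosis list was 9.08 and 9.06 in anti-CD3-CD28 Treg arrays, 7.22 and 7.25 in OX40L-JAG1 Treg arrays and 6.62 and 6.80 in control Treg arrays. The OX40L-JAG1 arrays thus lay between the others and closer to the control arrays. Mki67, the proliferation marker Ki-67, read 11.11 and 11.09, then 9.46 and 9.41, then 8.75 and 8.86 in these groups (1.67 ± 0.39, adjusted p = 0.028, not past the threshold without at least 1 of the 4 arrays). Bub1, a kinase of the spindle checkpoint, differed by 2.53 ± 0.31, Ccna2, for cyclin A2, by 2.34 ± 0.30 and Aurkb, for the kinase Aurora B, by 2.21 ± 0.18. For S phase genes the mean was 8.08 and 8.12 in anti-CD3-CD28 Treg arrays, 6.56 and 6.57 in OX40L-JAG1 Treg arrays and 6.72 and 6.69 in control Treg arrays, so that the OX40L-JAG1 arrays lay just below the control arrays. Cdc6, which loads the replicative helicase at origins, read 7.74 and 7.72 against 5.36 and 5.50 (2.30 ± 0.20, adjusted p = 6.61e-05). Mcm5, a subunit of that helicase, read 9.09 and 9.18 against 7.32 and 6.97 (1.99 ± 0.30), and Rrm2, the small subunit of ribonucleotide reductase, differed by 2.28 ± 0.31. G1 cyclins and CDK inhibitors gave 6 higher and none lower of 20, and 12 higher and 1 lower with no adjustment. With 1 array left out 3 to 12 were higher, and the members' differences ran from -0.50 to 2.58. The highest was that of Cdkn1a, for the inhibitor p21, at 2.58 ± 0.22.

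Promoters of S phase genes are known for sites of E2F factors, and the windows of Cdc6 and Mcm5 are shown because both genes rose and both windows hold such a motif. Windows run from 250 bases before to 50 after a RefSeq gene start of GRCm38.p6, which is a gene build and not one stated for the array. Capitals mark a match to TTTCCCGC or TTTGGCGC, searched on both strands. In Cdc6 (chr11:98907901-98908200, plus strand) the match begins 138 bases before the start, and in Mcm5 (chr8:75109259-75109558, plus strand) 149 bases before it.
Cdc6: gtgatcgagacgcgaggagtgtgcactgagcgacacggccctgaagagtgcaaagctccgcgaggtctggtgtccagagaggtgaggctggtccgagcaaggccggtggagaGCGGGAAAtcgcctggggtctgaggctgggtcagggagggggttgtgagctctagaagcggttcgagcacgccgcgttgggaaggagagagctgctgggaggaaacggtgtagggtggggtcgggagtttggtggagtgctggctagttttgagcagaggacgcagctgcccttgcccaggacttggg
Mcm5: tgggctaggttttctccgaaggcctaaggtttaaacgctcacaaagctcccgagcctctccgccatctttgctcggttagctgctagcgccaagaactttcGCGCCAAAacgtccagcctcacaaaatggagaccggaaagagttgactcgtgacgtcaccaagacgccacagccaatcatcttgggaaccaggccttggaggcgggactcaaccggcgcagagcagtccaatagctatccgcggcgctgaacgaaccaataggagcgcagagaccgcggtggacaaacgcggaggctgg
Of 27 S phase genes 23 had at least 1 window, and 8 of their 28 windows (28.6%) held the motif, against 1.56% of all 32851 windows of the table. In the mitosis list it was 1 of 25 windows (4.0%), while the plain CCAAT letters were in 19 of the 25 (76.0%), in 17 of the 28 S phase windows (60.7%) and in 14 of 17 windows of the cholesterol genes (82.4%), against 37.4% of all windows. The sterol element TCACNCCAC, where N is any base, was in 1 of the 17 cholesterol windows (5.88%), against 1.24% of all windows. The heat shock element GAANNTTC was in 8 of 22 windows of the heat shock and chaperone genes (36.4%), against 7.86%. A match of letters is a description and shows no binding.

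Most glycolysis and hypoxia response genes were higher. Of 31 measured 24 were higher and none lower, with a median of 1.25, and on 10 arrays 29 were higher. With 1 array left out the number was 17 to 29. Their mean was 9.23 and 9.28 in anti-CD3-CD28 Treg arrays, 7.88 and 7.77 in OX40L-JAG1 Treg arrays and 7.07 and 7.15 in control Treg arrays, 3 separate levels. Egln3, an oxygen-sensing prolyl hydroxylase that hypoxia itself induces, read 9.97 and 9.92 against 6.27 and 6.12 (3.76 ± 0.29, adjusted p = 3.35e-05). Bnip3, a mitophagy receptor, read 9.45 and 9.47 against 6.41 and 6.54 (2.98 ± 0.21, adjusted p = 1.79e-05). Slc16a3, a lactate exporter, differed by 2.27 ± 0.19, Ero1a, an oxidase of protein folding, by 2.27 ± 0.29 and Pfkp, a phosphofructokinase, by 2.20 ± 0.22. Hif1a, for the oxygen-regulated factor that drives many of these genes, differed by 0.59 ± 0.24 and did not pass (adjusted p = 0.234). The promoter windows of Egln3 (chr12:54203825-54204124, minus strand) and Bnip3 (chr7:138909457-138909756, minus strand) are shown. They are those of the called genes with the largest differences whose window holds the motif given next. Capitals mark ACGTG, the core of the hypoxia element, searched on both strands. In Bnip3 the capitals spell a palindrome that holds the core once on each strand.
Egln3: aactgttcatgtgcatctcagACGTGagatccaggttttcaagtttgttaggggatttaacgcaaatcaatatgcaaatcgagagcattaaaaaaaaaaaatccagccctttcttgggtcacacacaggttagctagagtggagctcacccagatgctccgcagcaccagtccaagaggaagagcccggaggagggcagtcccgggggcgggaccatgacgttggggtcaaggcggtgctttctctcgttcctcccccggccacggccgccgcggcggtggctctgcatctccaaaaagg
Bnip3: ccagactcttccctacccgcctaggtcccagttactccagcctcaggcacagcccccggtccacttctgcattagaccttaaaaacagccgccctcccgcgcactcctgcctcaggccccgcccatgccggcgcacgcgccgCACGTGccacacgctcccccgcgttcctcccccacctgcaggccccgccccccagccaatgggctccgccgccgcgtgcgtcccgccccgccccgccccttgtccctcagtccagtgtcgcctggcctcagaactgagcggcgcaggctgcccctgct
The core was in 27 of 41 windows of the list (65.9%), against 19.6% of all windows.

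Some lipid and amino acid supply genes were also higher, and the rest did not pass. Of 18 cholesterol genes 10 were higher and none lower (median 1.26), and on 10 arrays 17 were. Lss, which makes lanosterol, read 8.04 and 8.25 against 6.22 and 5.66 (2.21 ± 0.24), and Fdps, a farnesyl diphosphate synthase, read 9.89 and 9.89 against 8.26 and 8.46 (1.53 ± 0.27). Of 16 fatty acid genes 10 were higher and none lower (median 1.02), but 4 after quantile normalization. Scd1, the desaturase that makes oleate, read 9.36 and 8.91 in anti-CD3-CD28 Treg arrays, 5.53 and 5.69 in OX40L-JAG1 Treg arrays and 3.09 and 4.0 in control Treg arrays (3.52 ± 0.31). Elovl6, an elongase, differed by 2.42 ± 0.22 and Fads2, a desaturase of polyunsaturated fats, by 2.29 ± 0.38 (Fads2 not past the threshold after quantile normalization). Amino acid supply genes gave 10 higher and none lower of 28 (median 0.81), and 5 after quantile normalization. They include Psat1 of serine synthesis (1.82 ± 0.18), Asns, asparagine synthetase (1.62 ± 0.20), and Slc7a5, a carrier of large neutral amino acids (1.68 ± 0.22), which did not pass after quantile normalization. With no adjustment at p under 0.05, 16 cholesterol, 12 fatty acid and 18 amino acid genes were higher and none, none and 1 lower. With 1 array left out, 3 to 17 cholesterol, 4 to 12 fatty acid and 7 to 18 amino acid genes were higher, and Fdps was among those that then lost the call.

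Interferon-stimulated genes gave 14 higher and none lower of 36, with a median of 0.68, and 20 higher on 10 arrays. With no adjustment 21 were higher and none lower, and with 1 array left out 7 to 20 were higher. Oas2 and Oas3, which make the second messenger that activates RNase L, read 8.88 and 9.08 against 7.04 and 6.37, and 7.83 and 7.87 against 5.99 and 5.95. Their differences were 2.28 ± 0.22 and 1.88 ± 0.21. Mx2, for an antiviral GTPase, differed by 2.38 ± 0.26 and Dhx58, for the RNA sensor LGP2, by 2.17 ± 0.20. Ifi204, for a DNA-binding protein of the interferon-inducible p200 family, read 5.37 and 5.49 against 2.22 and 2.21 and 2.17 and 2.47 in control Treg cells, so it was above the bound with the antibodies alone among these groups (3.21 ± 0.24). The windows of Oas3 (chr5:120777610-120777909, minus strand) and Rsad2 (chr12:26456403-26456702, minus strand), the gene of the antiviral enzyme viperin, at 1.5 ± 0.20 (adjusted p = 0.001), are shown with matches to the interferon element in capitals, spelled GAAA, any 2 bases and GAAA again. They were picked because they hold a match. Called genes of the list with larger differences but no such window, among them Ifi204, Mx2, Oas2 and Dhx58, were passed over.
Oas3: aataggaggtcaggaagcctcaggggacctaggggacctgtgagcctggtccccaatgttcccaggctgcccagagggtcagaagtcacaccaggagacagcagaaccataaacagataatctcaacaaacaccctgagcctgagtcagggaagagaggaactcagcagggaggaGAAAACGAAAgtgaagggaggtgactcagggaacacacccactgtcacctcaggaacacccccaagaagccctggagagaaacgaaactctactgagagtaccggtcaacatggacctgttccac
Rsad2: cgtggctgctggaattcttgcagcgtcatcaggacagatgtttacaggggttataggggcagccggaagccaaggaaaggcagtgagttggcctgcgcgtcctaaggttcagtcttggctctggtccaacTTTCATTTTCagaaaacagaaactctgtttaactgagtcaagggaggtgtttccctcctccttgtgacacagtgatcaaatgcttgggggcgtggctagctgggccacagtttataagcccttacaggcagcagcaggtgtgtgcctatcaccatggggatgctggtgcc
Of 30 windows of the list 15 (50%) held the element on either strand, against 3.44% of all windows.

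Chaperones went both ways. Of 21 genes 5 were higher and 2 lower. The 2 that fell encode the inducible HSP70. Hspa1a read 3.39 and 3.37 in anti-CD3-CD28 Treg arrays, 7.38 and 7.29 in OX40L-JAG1 Treg arrays and 10.91 and 10.85 in control Treg arrays, and Hspa1b 4.18 and 4.72, then 7.80 and 8.04, then 11.16 and 11.37. Fresh cells were highest and the anti-CD3-CD28 arrays lay below the bound. The differences were -3.95 ± 0.23 (adjusted p = 6.86e-06) and -3.47 ± 0.38 (adjusted p = 0.00028). The genes are near-identical copies, so the probes may share signal. The 5 that rose, Pdia6, Hsp90b1, Calr, Hspa5 and Canx, encode chaperones of the endoplasmic reticulum. Differences were 0.91 to 1.5, for instance for Pdia6 (1.5 ± 0.24), Hsp90b1 (1.31 ± 0.22) and Calr, for calreticulin (1.18 ± 0.24). With 1 array left out 1 to 12 were higher.

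The metallothioneins Mt2 and Mt1, which bind zinc and copper, differed by 3.11 ± 0.40 and 2.53 ± 0.40. Mt1 read 10.07 and 10.04 against 7.56 and 7.49. They belong to a list of 14 nuclear receptor and metallothionein genes with 4 higher and 1 lower. Of 13 DNA methylation genes 4 were higher, among them Dnmt1, the maintenance methyltransferase (1.48 ± 0.19), its partner Uhrf1 (1.61 ± 0.21) and Tet2, which oxidises methylcytosine (1.22 ± 0.21, not past the threshold after quantile normalization). Of 20 BCL2 family and apoptosis genes 4 were higher and none lower, led by the survival gene Bcl2 (1.25 ± 0.23), and on 10 arrays 5 were higher and 4 lower. Averaging the rows of Bcl2 gave 0.62 (adjusted p = 0.151), and with 1 array left out 0 to 5 of the 20 were higher. Neither Bcl2 nor Tet2 passed without at least 1 of the 4 arrays. None of 27 oxidative phosphorylation, 30 proteasome or 24 ribosome biogenesis genes passed limma's test in either direction. With no adjustment at p under 0.05, 1, 4 and 8 of them were higher and none lower, against 2454 and 1060 of all 22180 genes. On 10 arrays 2, 7 and 7 were higher, with 1 oxidative phosphorylation gene lower. A p that misses the threshold does not show that these genes were equal.

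**Figure D4:**
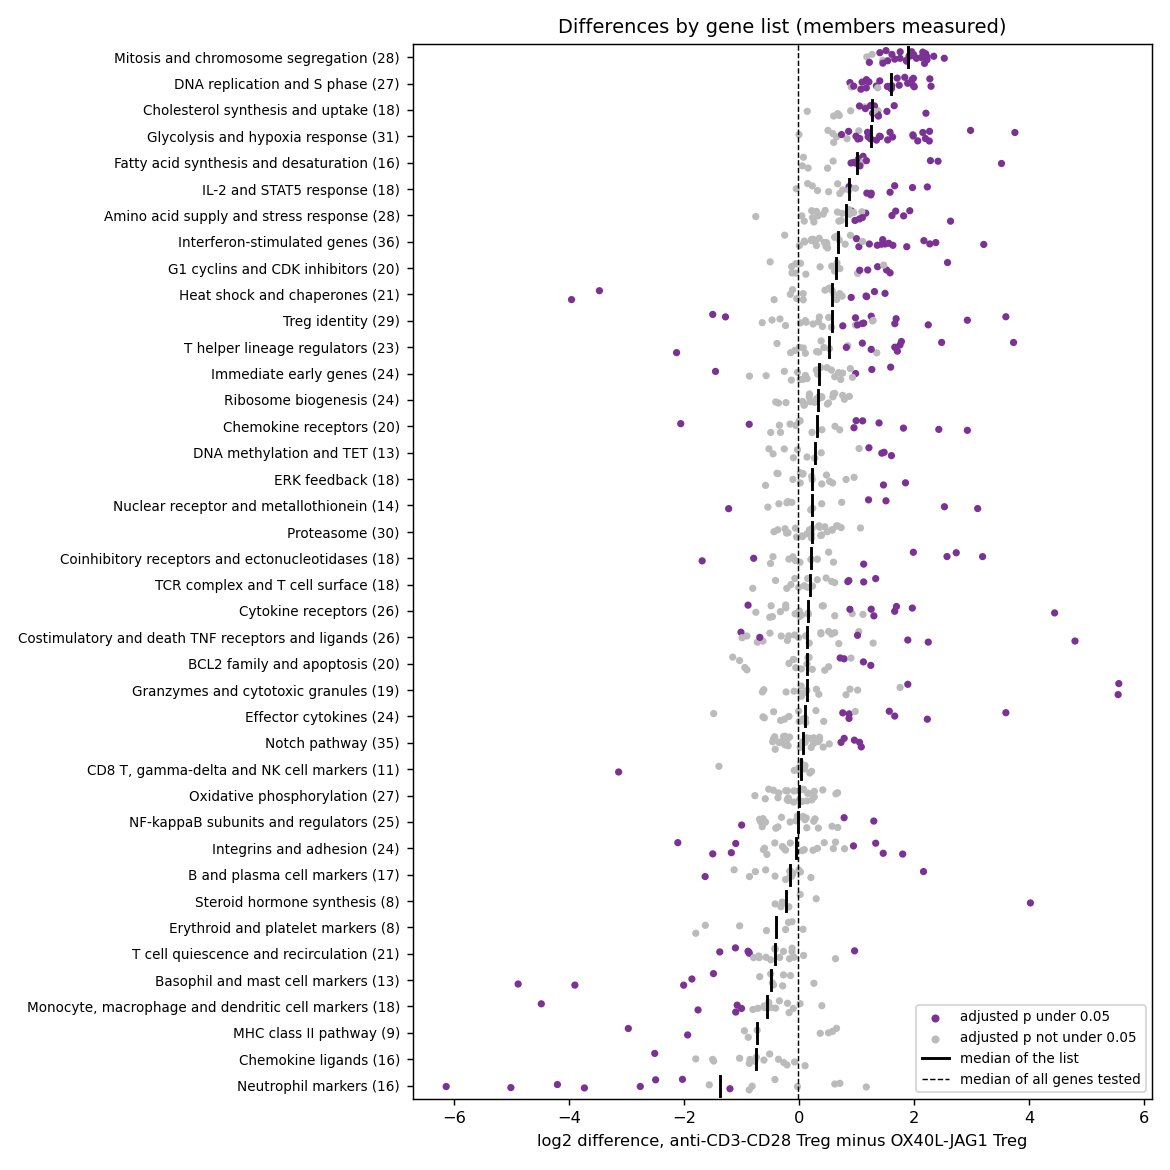
Differences (log2, x axis) of every measured member of 40 gene lists, with the number measured after each name, ordered by the list's median (black bar). The dashed line is the median of all genes, -0.02, and purple points have an adjusted p under 0.05. Of the lists drawn, which leave out the Y-linked genes and Xist, mitosis genes lie highest, with a median of 1.89, and neutrophil markers lowest, with -1.38.

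Some markers of neutrophils, basophils and mast cells, and of monocytes, macrophages and dendritic cells, were higher in OX40L-JAG1 Treg cells. Of 16 neutrophil markers 8 were lower in anti-CD3-CD28 Treg cells and none higher (2 higher with no adjustment), and their mean was 4.55 and 4.48 in anti-CD3-CD28 Treg arrays, 6.13 and 6.49 in OX40L-JAG1 Treg arrays and 4.30 and 4.34 in control Treg arrays. S100a8, a calcium-binding protein of neutrophils, read 3.89 and 3.34 against 9.66 and 9.84, and 3.38 and 3.59 in control Treg cells. Of these 3 groups the OX40L-JAG1 arrays alone lay above the bound, and the difference was -6.13 ± 0.37 (adjusted p = 7.45e-06). Chil3, a chitinase-like protein of myeloid cells, Ngp, a neutrophil granule protein, and S100a9, the partner of S100a8, differed by -5.01 ± 0.54, -4.20 ± 0.22 and -3.73 ± 0.33. The neutrophil markers Ltf, Ly6g and Csf3r did not pass, with -0.02, 1.17 and -0.42. Of 13 basophil and mast cell markers 5 were lower, and 8 lay below the bound in both groups. Mcpt8, a basophil protease, read 3.57 and 3.24 against 8.21 and 8.36, and Cpa3, a carboxypeptidase of mast cells and basophils, 4.36 and 4.05 against 7.84 and 8.37, with both anti-CD3-CD28 means below the bound. Fcer1a, the binding chain of the IgE receptor, lay below the bound in both groups. The basophil and mast cell mean was 3.57 and 3.60 in anti-CD3-CD28 Treg arrays, 4.84 and 4.89 in OX40L-JAG1 Treg arrays and 3.81 and 3.62 in control Treg arrays.

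Of 18 markers of monocytes, macrophages and dendritic cells 5 were lower and none higher, also with no adjustment none higher, and with 1 array left out 1 to 8 were lower. Their mean was 4.78 and 4.89 against 5.58 and 5.63, with 5.03 and 5.09 in control Treg cells. Of the 18, 10 lay below the bound in both groups. Lyz2, the lysozyme of myeloid cells, read 4.54 and 4.27 against 8.80 and 8.97 (-4.48 ± 0.38). Of 9 MHC class II pathway genes 2 were lower. H2-Aa read 4.75 and 4.52 against 7.49 and 7.71 (-2.97 ± 0.33) and H2-Eb1 5.48 and 5.79 against 7.33 and 7.80 (-1.93 ± 0.37), but H2-Ab1, which encodes the partner chain of H2-Aa, read 8.94 and 9.02 against 8.33 and 8.61 (0.51 ± 0.33, adjusted p = 0.562). Fcer1g, a signalling chain shared by myeloid cells, NK cells and basophils, differed by -3.13 ± 0.38. Of 17 B and plasma cell markers 1 was lower, Bank1, and 1 higher, Xbp1, a factor of secretory cells (2.17 ± 0.26). Among 16 chemokine ligands, which many of these cells make, 1 was lower, Ccl17 (-2.51 ± 0.41), and 10 were lower on 10 arrays. H2-Eb1 and Ccl17 did not pass without at least 1 of the 4 arrays, nor did Ccl17 after quantile normalization (adjusted p = 0.0593). With no adjustment 9 were lower and none higher. The part of other cells in these differences, or in those of the other lists, was not tested.

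The Y-linked genes and Xist differed between the Treg groups, though no label gives the sex of the mice. Eif2s3y read 3.68 and 3.78 in anti-CD3-CD28 Treg arrays, 8.78 and 8.85 in OX40L-JAG1 Treg arrays and 6.75 and 7.07 in control Treg arrays. Kdm5d read 2.57 and 2.74, then 7.69 and 7.31, then 5.84 and 6.35, and Uty 2.90 and 2.70, then 7.99 and 7.08, then 6.22 and 6.20. Xist, the RNA of the inactive X chromosome, read 11.16 and 11.11, then 8.77 and 8.31, then 10.08 and 10.32. The 3 groups held 3 separate levels of each gene, and the Y-linked genes lay below the bound in anti-CD3-CD28 Treg cells alone. The differences were -5.08 ± 0.36, -4.85 ± 0.34, -4.74 ± 0.40 and 2.60 ± 0.27. Usp9y, also Y-linked, lay below the bound in both groups. Treatment and the sex of the mice cannot be told apart in this comparison.

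**Figure D5:**
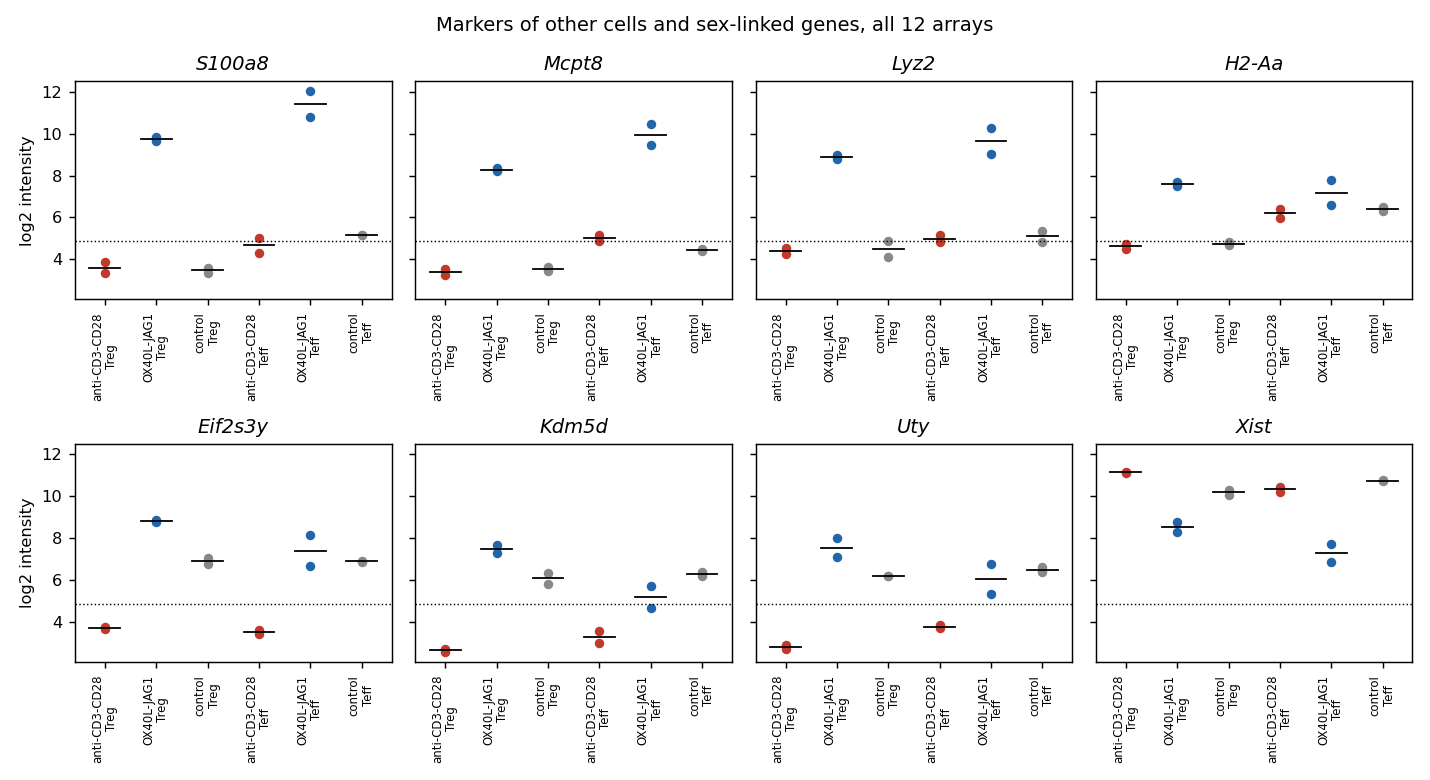
Log2 intensity (y axis) of 4 markers of other cells and 4 sex-linked genes on all 12 arrays, 1 point per array, with a bar at the mean of each group and a dotted line at 4.87. S100a8, Mcpt8 and Lyz2 are high in OX40L-JAG1 Treg and OX40L-JAG1 Teff arrays, and the 3 Y-linked genes are low in both anti-CD3-CD28 groups.

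The same contrast could be set against that of Teff cells of the same cultures, as a difference of the differences. At an adjusted p under 0.05, 59 of 22180 genes (0.266%) had a larger value in Treg cells and 144 (0.649%) a smaller one, 203 in all. This count depends on which arrays are used, among them the OX40L-JAG1 Teff pair that stood apart. It was 1792 without replicate B of that pair and 6941 without replicate 1, 18 with array weights, 124 with the replicates as a block, and 3 to 38 without any 1 of the other arrays. Some lists with no called member in Treg cells read low on the OX40L-JAG1 Teff arrays. The oxidative phosphorylation mean was 6.72 and 8.18 there, against 8.57 and 8.51 in anti-CD3-CD28 Teff arrays. The proteasome mean was 6.96 and 8.14, against 8.67 and 8.69. Neutrophil markers went the other way, with 7.13 and 8.09 against 4.81 and 4.60. The part of this in the values of single genes was not tested. Nfkb2 was one of the 144. It was lower in anti-CD3-CD28 Treg than in OX40L-JAG1 Treg cells, as given above, while in Teff cells it read 7.65 and 7.48 with anti-CD3-CD28 and 6.37 and 6.41 with OX40L-JAG1, a difference of 1.17, so that Treg minus Teff was -2.17 ± 0.24 (adjusted p = 0.007). Cyp11a1 differed by 4.03 in Treg and by 1.16 in Teff cells, and Treg minus Teff was 2.87 ± 0.38 (adjusted p = 0.0143). Il2ra differed by 1.26 and 3.79, Ctla4 by 1.13 and 3.10 and Tnfrsf4 by 1.02 and 2.89, all with larger values in Teff cells, where the OX40L-JAG1 arrays were low. Gzmb, at 5.55 in Treg and 5.66 in Teff cells, had a Treg minus Teff value of -0.11 ± 0.36 (adjusted p = 0.897).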

How the data were processed

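The authors deposited log2 intensities of 12 arrays (Affymetrix Mouse Gene 2.0 ST), summarised by RMA per the submitters' processing notes; its version is not stated there. Of 41345 rows, 23521 carried 1 gene symbol, 1814 several and 16010 none. Rows with 1 symbol were kept, symbols were updated by Entrez ID where it matched a GRCm38.p6 gene table (23328 rows), and for 1082 genes with several rows the row of highest mean over 12 arrays was used, which left 22180 genes. No build of the array annotation is stated.

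Groups came from sample titles. Differences were tested with limma 3.58.1 (R 4.3.3) on the deposited log2 values, with 6 group means, 12 arrays and 6 residual degrees of freedom, and p-values were adjusted over all 22180 genes by Benjamini-Hochberg, with a threshold of 0.05. The Treg minus Teff value is a contrast of the same fit. Standard errors are the moderated ones of limma. The scripts were tested on simulated arrays with the per-gene spreads of these, with 50 genes changed at each size. Changes of 1 on the log2 scale were recovered for 32% of genes and changes of 2 for 82%, with 6 false calls. A gene that did not pass may thus still differ. Alternatives were the 10 arrays without the OX40L-JAG1 Teff pair, the 4 arrays alone, the replicate as a block, dim genes left out, other shrinkage, quantile normalization, array weights, arrays shifted to a common median, a gene's rows averaged, and each array left out. Members and gene lists were chosen with earlier results of these data known. The genes named are the 12 largest positive and 12 largest negative differences past the threshold, up to 5 called members of each list with the largest differences, and Foxp3, Tnfrsf4, Il2ra, Ctla4, Ikzf2, Nrp1, Lrrc32, Notch1, Notch2, Notch3, Nfkb2, Relb, Mki67, Il2, Il10, Ifng, Gzma, Gzmb, Kdm5d, Uty and Xist. Predicted and clone-named genes, small RNA genes, olfactory and vomeronasal receptors and antigen receptor segments were left out of the largest. Genes given with values outside that rule (for example Cd4, Cd3e, Prf1, Hif1a, Ltf, Csf3r, Usp9y and those of the 4 lists of the closing section) were chosen after their values were seen. Promoter windows are RefSeq's, for GRCm38.p6.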

Additional observations from a re-analysis of the deposited data

Results flagged for a closer look

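For 13 named genes the difference between anti-CD3-CD28 and OX40L-JAG1 was not the same in Treg as in Teff cells, by the limma contrast of the 2 differences (adjusted p under 0.05). In all, 203 of 22180 genes passed, and 18 with array weights. The contrast uses the OX40L-JAG1 Teff arrays, which stood apart from their own replicate and from the other arrays, and whose neutrophil marker mean was 7.13 and 8.09, against 4.81 and 4.60 in anti-CD3-CD28 Teff arrays. The part of this in the values was not tested.

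The Treg minus Teff value was -2.53 for Il2ra (adjusted p = 0.0225), -1.97 for Ctla4 (0.0278) and -1.87 for Tnfrsf4 (0.0425). In all 3 the anti-CD3-CD28 arrays were the higher ones in both cell types, and the step was larger in Teff cells. The value was -2.77 for Il13, with a Teff difference of 4.34, and -2.0 for Ifng, with 7.74 and 7.54 in anti-CD3-CD28 Teff arrays and 4.65 and 4.88 in OX40L-JAG1 Teff arrays. For Ifi204 it was -2.34, with a Teff difference of 5.55, and for Tet2 -1.71, with a Teff difference of 2.92.

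Nfkb2 (-2.17), Btla (-1.83) and Itgae (-1.83) were lower with anti-CD3-CD28 in Treg cells, while their Teff differences were 1.17, 0.15 and 0.33. Cyp11a1 (2.87) differed more in Treg cells. For Ngp the value was 1.54, since its Teff difference was -5.74, and for the Y-linked gene Kdm5d it was -2.93, with a Teff difference of -1.91.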

How the results depend on the processing

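The count of genes past the threshold was 1311 on 12 arrays. It was 3082 without both OX40L-JAG1 Teff arrays, 2771 on the 4 arrays alone and 3435 with array weights. All of these held the 1311, but they keep each difference and change only its standard error and p-value. Leaving out 1 array gave 595 to 3082, the lowest without anti-CD3-CD28 Treg replicate B (595), then 603 without its replicate 1, 653 and 706 without an OX40L-JAG1 Treg array, and the highest without either OX40L-JAG1 Teff array. Quantile normalization gave 637 higher and 325 lower, with 805 genes shared. The Treg minus Teff count of 203 was 124 with the replicate block, 402 with dim genes left out and 18 with array weights, and leaving out 1 array gave 3 to 6941. The cause was not tested.

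The difference between replicates B and 1 correlated at -0.069 to 0.182 over the 15 pairs of groups. The highest value was that of OX40L-JAG1 Teff with OX40L-JAG1 Treg cells. Low correlations cannot exclude that samples are paired by mouse, culture or day, and no label settles it. With the replicate block the main count was 1258, of which 1211 were shared. Of the 153 named genes called, 150 were called with the block, 130 after quantile normalization and 100 without any 1 array. Notch3, not past the threshold at -0.24, had 0.28 without OX40L-JAG1 Treg replicate B (adjusted p = 0.905) and -0.75 without replicate 1. Dim genes have no order, and 10390 of 22180 lay below the bound in both groups.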

Other observations

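The first 4 gene groups here were chosen after their values were seen, so their counts support nothing. The other lists were chosen with earlier results of these data known, so their counts too are description. Of 73 small nucleolar RNA genes of the Snora and Snord names, which guide the chemical modification of ribosomal RNA, 39 were lower in anti-CD3-CD28 Treg cells and none higher (51 and 2 with no adjustment at p under 0.05), with a median difference of -1.02, against -0.02 for all genes. Snord111 read 8.94 and 8.87 in anti-CD3-CD28 Treg arrays, 11.14 and 11.14 in OX40L-JAG1 Treg arrays and 11.81 and 11.98 in control Treg arrays. The list's mean was 9.16 and 9.13, then 10.04 and 10.18, then 11.36 and 11.12 in the same groups. Both cultured Treg groups thus lay below the fresh Treg cells. In Teff cells the cultured groups lay above the fresh ones. The mean was 11.87 and 11.88 with anti-CD3-CD28, 11.58 and 12.04 with OX40L-JAG1, and 10.26 and 10.28 in control Teff arrays. The protein-coding genes of ribosome biogenesis had a median difference of 0.33 with none past the threshold.

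Of 25 homologous recombination and Fanconi genes 16 were higher and none lower. Rad54l, which remodels DNA for strand exchange, read 7.37 and 7.41 against 5.25 and 4.54, and Brca1 differed by 1.87. Of 20 genes of protein folding and quality control in the secretory pathway 12 were higher and none lower, with a median of 1.17. Among 11 genes of inflammatory cell death 2 were higher and none lower (3 and 2 with no adjustment), both of necroptosis. Ripk3, its kinase, read 8.69 and 8.97 against 6.39 and 6.95, and Mlkl, the protein that breaks the membrane, differed by 1.95. The list's median was -0.32. Of 8 erythroid and platelet markers none passed limma's test, with none higher and 2 lower with no adjustment and 3 lower on 10 arrays.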
